A study of Mus musculus with 24 samples.

Results

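The 31 genes described here are those of the smooth muscle contractile program, chosen by name. They were measured on 24 Agilent mouse arrays, 1 colour each, that carried RNA of cells sorted as endothelium from the aorta or from skeletal muscle. A gene was matched to its probes through the accession that the array design gives each probe, and the brightest probe in a tissue (for a comparison of the tissues, over both) was used. Of the 31 genes, 30 had at least 1 matched probe, out of 18539 gene symbols with one, and they held 53 of the 41174 non-control probes. No probe was matched to Tgfb1i1. By role, the list holds 12 genes of the thin filament and of myosin, 4 that control myosin phosphorylation, 4 of calcium and potassium handling, 4 of transcription, and 7 of adhesion sites, dense bodies and intermediate filaments.

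Smooth muscle contracts when calcium entry activates myosin light chain kinase, which phosphorylates the regulatory light chain of myosin and lets the myosin pull on filaments of smooth muscle actin. Serum response factor (SRF) binds CArG boxes in the promoters of many of these genes, and its coactivator myocardin is recruited through SRF and holds the program on. In the wall of the aorta the program marks the medial cells that lie under the endothelium, and in skeletal muscle it marks the smooth muscle of arterioles. Pericytes and cultured fibroblasts can carry parts of it, and several genes of the list are made by other cells too.

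WT mice were C57BL/6J and KO mice were Galectin-3(-/-), of the line B6.Cg-Lgals3tm1Poi/J, in which exons 2 to 4 of Lgals3 are deleted in every cell. Male mice of both strains were put, from 8 weeks of age, on a high-fat diet (HFD) with 60% of calories from fat or on chow with 12%, and tissue was taken after 8 weeks of diet. Cells of the aorta, down to the iliac bifurcation, or of 3 leg muscles of a mouse were digested with collagenase and sorted as live CD105+/CD45- cells, where CD105 is endoglin. Each array held the pooled cells of 3 to 4 mice, and each of the 8 groups (aorta or muscle, WT or KO, HFD or chow) had 3 arrays, 1 from each of experiments 1, 2 and 3. The p values below rest on the spread between such pools. For diet this is the spread, over experiments, of HFD minus chow differences within a strain. For strain and tissue it is the spread of arrays within a group.

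Levels are the log2 of the background-subtracted signal divided by the 75th percentile of the array's signals, so that a level of 0 is the 75th percentile. They compare 1 probe across arrays and say nothing about the abundance of 1 gene against another. A probe was called well above background when the scanner software marked at least 0.5 of its spots so, and it was tested in a tissue if this held on every array of at least 1 group. Of the 30 genes with a probe, 27 were tested in aorta (Pln, Kcnmb1 and Kcnma1 were not), 28 in muscle (Kcnma1 and Npnt were not) and 29 between the tissues (Kcnma1 was not). A dim gene could enter through the group in which it was brightest. Npnt did so between the tissues (aorta), and Cacna1c in aorta (HFD) and in muscle (WT chow). Kcnmb1 entered in muscle through KO HFD, and Pln in muscle through the HFD groups. Such a gene had to differ there, so its values are descriptions. A gene was called different at a Benjamini-Hochberg adjusted p under 0.05 in limma, adjusted over all probes tested. Where the dimmer group had no array well above background, a lower bound is given as "at least". It sets the mean of the brighter group against the higher, on each array of the dimmer group, of the probe's own level and the lowest level of any probe well above background. It bounds the difference of group means and carries no error, so single pairs can differ by less.

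The Lgals3 probe, which was well above background on all 24 arrays, does not show a loss of signal in the arrays labelled KO. It read 0.90 to 3.20 in WT and 2.40 to 4.53 in KO aorta, and 3.27 to 4.97 in WT and 4.30 to 6.31 in KO muscle, and was higher in KO in every pair but the HFD pair of experiment 1 in aorta. Whether that probe lies inside the deletion was not analysed here. The study checked the deletion in other ways. It reports the mutant fragment in DNA, no PCR product from primers placed inside the deletion, and loss of the protein in aorta. Across the arrays, 59.5% to 75.7% of spots were well above background.

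Each of 12 endothelial markers (among them Cdh5, Kdr, Vwf and Eng, the gene of the sorted antigen) was well above background on all 24 arrays. So were markers of other cells, such as Pdgfra of fibroblasts and Pdgfrb of pericytes. These readings therefore do not measure how pure the sort was. Other markers are given beside the comparisons. A set of 35 probes that separates the strains on the other arrays placed the 4 HFD arrays of experiment 1 between WT (0) and KO (1), at 0.196 and 0.335 in aorta and 0.331 and 0.405 in muscle for the arrays labelled WT and KO. The other 20 arrays lay between −0.125 and 0.0848 for WT and between 0.883 and 1.12 for KO. The probes were chosen by strain, and the scale set, on arrays outside experiment 1, which lie near 0 or 1 by construction. Only the chow arrays of experiment 1 are an independent check. They lay at 0.042 and 1.02 in aorta and 0.0848 and 0.908 in muscle for WT and KO. The main tissue and diet differences are also given without the 4 HFD arrays of experiment 1, because of their positions.

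For a view of the regulation of these genes, the RefSeq sequence of GRCm38.p6 was searched for CArG boxes, from 250 bases before to 50 after each transcript start, in the 26 of the 31 genes with such a window. The motif reads alike on both strands. Myl9, Vcl and Srf held a complete box, 11.5% of the 26, against 1.81% of all 27025 genes. With 1 base off in the core of the box allowed, 6 of the 26 held one (23.1%), against 11.3% of all genes. A match is a description of the letters in this window and not evidence of binding. The 250 bases before the start are shown for the 3 genes with a complete box and for Acta2, whose smooth muscle actin gives the program its usual marker, with complete boxes in capitals in Myl9, Srf and Vcl and boxes with 1 base off in capitals in Acta2. They lie at chr19:34255374-34255623 on the minus strand (Acta2), chr2:156775214-156775463 on the plus strand (Myl9), chr17:46556163-46556412 on the minus strand (Srf) and chr14:20929148-20929397 on the plus strand (Vcl).
Acta2: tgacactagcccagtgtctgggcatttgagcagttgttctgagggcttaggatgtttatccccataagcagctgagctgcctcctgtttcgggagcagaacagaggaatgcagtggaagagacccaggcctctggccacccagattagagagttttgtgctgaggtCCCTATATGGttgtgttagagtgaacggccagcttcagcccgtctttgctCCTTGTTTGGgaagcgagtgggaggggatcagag
Myl9: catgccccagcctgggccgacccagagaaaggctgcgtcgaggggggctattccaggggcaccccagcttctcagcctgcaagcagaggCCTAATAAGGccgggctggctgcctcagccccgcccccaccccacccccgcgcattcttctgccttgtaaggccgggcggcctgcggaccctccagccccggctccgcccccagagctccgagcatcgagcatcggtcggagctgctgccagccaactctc
Srf: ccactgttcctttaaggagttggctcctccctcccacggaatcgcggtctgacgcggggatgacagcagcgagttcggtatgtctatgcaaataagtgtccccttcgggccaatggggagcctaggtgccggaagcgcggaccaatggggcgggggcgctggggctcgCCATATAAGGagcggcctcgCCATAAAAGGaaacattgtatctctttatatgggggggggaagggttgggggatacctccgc
Vcl: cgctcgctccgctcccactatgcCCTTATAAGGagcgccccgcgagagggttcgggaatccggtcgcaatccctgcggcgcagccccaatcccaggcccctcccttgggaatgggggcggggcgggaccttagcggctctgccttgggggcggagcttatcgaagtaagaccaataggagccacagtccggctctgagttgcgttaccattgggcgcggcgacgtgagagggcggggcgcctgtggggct
The boxes begin 84 and 34 bases before the start in Acta2, 161 in Myl9, 82 and 62 in Srf and 227 in Vcl.

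Smooth muscle genes of the thin filament were read in both sorted populations. Acta2, the smooth muscle actin, was well above background on all 24 arrays, and the values are given for experiments 1, 2 and 3 in that order. In aorta, Acta2 read 4.81, 5.12 and 4.99 on the WT chow arrays, 5.04, 5.91 and 5.04 on the WT HFD arrays, 5.60, 4.98 and 5.10 on the KO chow arrays and 4.92, 6.07 and 5.29 on the KO HFD arrays. In muscle, Acta2 read 5.55, 4.40 and 5.06 on the WT chow arrays, 5.86, 5.62 and 5.09 on the WT HFD arrays, 5.60, 3.81 and 5.08 on the KO chow arrays and 5.72, 6.17 and 4.86 on the KO HFD arrays. The 2 lowest Acta2 levels were those of the chow arrays of experiment 2 in muscle, and the ranges of the tissues overlapped. Myh11, the smooth muscle myosin heavy chain and the marker most restricted to this cell type, was also well above background on all 24 arrays. In aorta, Myh11 read −3.59, −2.24 and −3.83 on the WT chow arrays, −4.22, −2.21 and −2.94 on the WT HFD arrays, −2.56, −3.43 and −2.86 on the KO chow arrays and −3.75, −2.60 and −2.15 on the KO HFD arrays. In muscle, Myh11 read −0.50, −1.48 and −0.92 on the WT chow arrays, −1.26, −2.33 and −2.07 on the WT HFD arrays, −0.99, −1.97 and −1.31 on the KO chow arrays and −1.47, −0.99 and −1.63 on the KO HFD arrays. Myh11 was lower in most aorta arrays than in muscle arrays, with overlap between −2.33 and −2.15.

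Tagln, which encodes the actin-binding protein SM22-alpha, showed less spread. In aorta, Tagln read 3.35, 4.13 and 3.99 on the WT chow arrays, 3.38, 4.52 and 3.86 on the WT HFD arrays, 4.02, 3.67 and 4.16 on the KO chow arrays and 3.29, 4.27 and 4.19 on the KO HFD arrays. In muscle, Tagln read 4.75, 4.48 and 5.08 on the WT chow arrays, 4.32, 5.01 and 4.95 on the WT HFD arrays, 4.97, 4.78 and 5.10 on the KO chow arrays and 4.88, 5.08 and 4.51 on the KO HFD arrays. Only the highest Tagln level in aorta, 4.52, lay above the lowest in muscle, 4.32. Smtn, smoothelin of contractile cells, did not overlap between the tissues. In aorta, Smtn read 0.60, 1.17 and 0.23 on the WT chow arrays, 0.58, 1.0 and 1.37 on the WT HFD arrays, 1.45, 1.37 and 0.95 on the KO chow arrays and 1.24, 0.88 and 1.35 on the KO HFD arrays. In muscle, Smtn read 2.95, 3.11 and 2.36 on the WT chow arrays, 2.15, 1.92 and 2.08 on the WT HFD arrays, 2.32, 2.83 and 2.15 on the KO chow arrays and 2.07, 2.76 and 2.62 on the KO HFD arrays. The highest Smtn level in aorta was 1.45 and the lowest in muscle 1.92. Lmod1, leiomodin, which nucleates actin filaments, ranged from 0.83 to 2.66 in aorta and from 0.97 to 2.51 in muscle. In aorta, Lmod1 read 1.20, 0.83 and 1.39 on the WT chow arrays, 1.62, 2.66 and 1.40 on the WT HFD arrays, 1.36, 0.98 and 1.51 on the KO chow arrays and 2.24, 2.57 and 1.86 on the KO HFD arrays. In muscle, Lmod1 read 2.38, 1.54 and 1.95 on the WT chow arrays, 1.78, 0.98 and 1.05 on the WT HFD arrays, 2.50, 1.59 and 1.91 on the KO chow arrays and 1.22, 1.98 and 0.97 on the KO HFD arrays. In aorta the 3 highest Lmod1 levels were on HFD arrays, and in muscle the 4 lowest were.

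Cnn1, calponin, which binds actin and slows the myosin cycle, varied more than the genes above. In aorta, Cnn1 read −0.07, −2.25 and 0.96 on the WT chow arrays, 0.43, 1.50 and 1.05 on the WT HFD arrays, −1.38, −3.38 and −0.69 on the KO chow arrays and 0.31, 0.44 and 1.44 on the KO HFD arrays. In muscle, Cnn1 read −1.69, −5.29 and −1.67 on the WT chow arrays, −0.85, −1.66 and −1.38 on the WT HFD arrays, −2.57, −9.21 and −2.51 on the KO chow arrays and −2.21, −0.83 and −2.12 on the KO HFD arrays. The KO chow array of experiment 2 in muscle was the only one of the 24 that was not well above background for Cnn1. The chow arrays of experiment 2 were the lowest of their tissue in both strains. Myocd, the coactivator of SRF, was well above background on 12 of 12 aorta arrays and 10 of 12 muscle arrays. In aorta, Myocd read −4.02, −3.73 and −2.33 on the WT chow arrays, −3.30, −3.04 and −2.88 on the WT HFD arrays, −3.25, −5.05 and −3.48 on the KO chow arrays and −4.20, −3.61 and −1.92 on the KO HFD arrays. In muscle, Myocd read −3.04, −4.83 and −3.88 on the WT chow arrays, −2.85, −3.97 and −5.34 on the WT HFD arrays, −2.53, −8.55 and −3.15 on the KO chow arrays and −3.73, −4.71 and −4.03 on the KO HFD arrays. The WT HFD array of experiment 3 and the KO chow array of experiment 2 in muscle were the 2 not well above background. Des, desmin, the intermediate filament of smooth and of skeletal muscle, was above background throughout. In aorta, Des read −3.21, −2.08 and −2.51 on the WT chow arrays, −3.58, −3.72 and −2.28 on the WT HFD arrays, −5.31, −2.82 and −1.81 on the KO chow arrays and −2.91, −4.40 and −2.29 on the KO HFD arrays. In muscle, Des read −0.42, −0.96 and −0.49 on the WT chow arrays, 0.05, −2.70 and −1.48 on the WT HFD arrays, −0.48, −0.99 and −0.15 on the KO chow arrays and −0.26, −2.22 and −1.66 on the KO HFD arrays. All 12 aorta levels of Des were at or below −1.81, and 10 of the 12 muscle levels were above that.

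**Figure D1:**
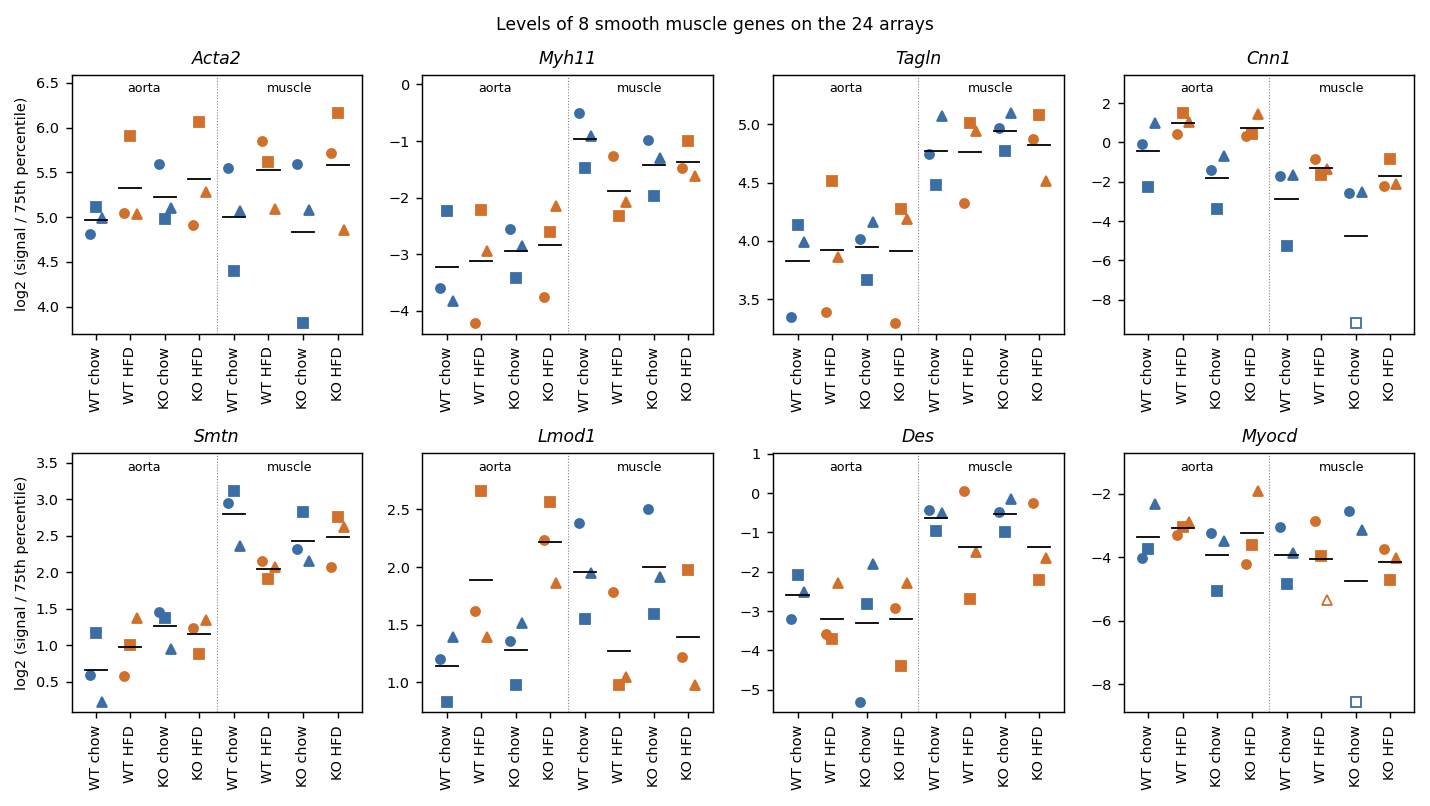
Levels of 8 genes that define smooth muscle on the 24 arrays (log2 of the signal over the array's 75th percentile, each panel with its own axis), with blue for chow and orange for HFD, a circle, square or triangle for experiment 1, 2 or 3, an open symbol for an array not well above background, and a bar for the group mean of 3. Smtn does not overlap between the tissues (1.45 against 1.92), and Cnn1 and Myocd have their lowest level on the KO chow array of experiment 2 in muscle.

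The other genes are given by their lowest and highest level. Filament genes Actg2, Tpm2, Cald1 (caldesmon) and Dstn (an actin-severing protein) ranged from −0.72 to 0.70, 0.03 to 1.78, −0.36 to 1.41 and 3.11 to 3.87 in aorta and from 0.17 to 1.50, −0.85 to 2.79, −0.73 to 1.66 and 2.52 to 3.74 in muscle. Tpm1, whose brightest probe differed between the tissues so that its levels are not compared, ranged from 0.48 to 2.40 in aorta and from 2.10 to 4.80 in muscle. In aorta, Srf ranged from −0.13 to 1.74, Csrp1 from 2.79 to 3.88, Ppp1r14a from 1.52 to 2.89, Ppp1r12b from −5.94 to −2.63, and in muscle from 0.43 to 1.70, 3.72 to 4.94, 1.81 to 2.64 and −5.25 to −2.85. Of the adhesion genes, Flna (filamin) ranged from 4.44 to 5.76 in aorta and 4.73 to 5.98 in muscle, Pdlim7 (a PDZ and LIM protein) from 1.26 to 2.40 and 1.59 to 2.75, and Synpo2 from −4.40 to −1.15 and −4.90 to −2.24.

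The aorta and muscle were compared over all 24 arrays, as the mean of the aorta minus muscle differences of the 4 strain and diet groups. Each slide held arrays of 1 tissue only, so tissue and slide cannot be told apart in these differences. The fit had no block, although arrays that share an experiment deviated together. Of the 29 genes tested, 3 were higher and 11 lower in aorta in limma, beside 46.2% of all 27346 probes called in either direction. The 3 include Npnt, which was tested through the aorta groups alone, so that its call is a description. The median difference was −0.29 over the 29 genes and −0.27 over all probes, so that the list as a whole lay where the probes of the array did. Centred as in the deposited log2 table, the median of all probes was −0.0075, 21.7% of all probes were higher and 15.1% lower (16% and 30.2% here), and 4 of the genes were higher and 10 lower. In these bulk samples, fewer cells of a type and less RNA per cell cannot be told apart.

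The 3 genes higher in aorta were Itga8, Npnt and Cnn1. Itga8, the alpha8 integrin of contractile cells, lay between −1.91 and 2.35 in aorta (median 1.66) and between −6.13 and −0.91 in muscle (median −2.06). Only 1 of the 12 aorta levels of Itga8 fell inside the range of muscle, and the difference was 3.10 on the log2 scale (SE 0.47, limma adjusted p = 2.843e-05). Npnt, nephronectin, the matrix ligand of that integrin, was well above background on 12 of 12 aorta arrays, from −4.49 to −1.82 (median −2.54), and on 5 of 12 muscle arrays, from −9.10 to −2.45 over all 12 (median −7.23). Npnt was tested only because the aorta arrays were above background, so its difference and p values are descriptions. Its difference was 3.24 (SE 0.76, limma adjusted p = 0.0020), and it was 1.01, 4.36 and 4.36 in experiments 1, 2 and 3. Without experiment 2 the limma adjusted p for Npnt was 0.0697 and without experiment 3 it was 0.0813. Cnn1 had a median of 0.37 in aorta and −1.91 in muscle, a difference of 2.53 (SE 0.67, 5.77-fold, limma adjusted p = 0.0050), which was lost without experiment 3 (adjusted p = 0.0582). Without the HFD arrays of experiment 1 the differences were 3.28 for Itga8 and 2.65 for Cnn1, both called, and 4.18 for Npnt.

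Of the 11 genes lower in aorta, the filament and myosin genes were Myh11, Smtn, Tpm1, Tagln, Actg2 and Myl9. Myh11 had a median of −2.90 in aorta and −1.39 in muscle, a difference of −1.62 (SE 0.26, 3.08-fold, limma adjusted p = 6.047e-05) that was negative in all 3 experiments. Smtn, whose ranges did not overlap (beside 2.1% of all probes not overlapping and lower in aorta), differed by −1.43 (SE 0.15, 2.69-fold, limma adjusted p = 4.563e-07). Its difference was −1.41, −1.55 and −1.33 in the 3 experiments, close to its mean in each. Without the HFD arrays of experiment 1 the differences were −1.31 for Myh11 and −1.42 for Smtn, both called. Tagln differed by −0.92 (SE 0.17), Actg2, the other smooth muscle actin, by −0.87 (SE 0.20), and Myl9, the regulatory light chain whose promoter is shown above, by −0.77 (SE 0.12), each in the same direction in 3 of 3 experiments. Tpm1, a tropomyosin, differed by −1.02 (SE 0.21) on its brightest probe and by −4.11 and −3.15 on its other tested probes, and skeletal muscle fibres also make it.

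Des, lower in aorta by 2.10 on the log2 scale (SE 0.40, limma adjusted p = 0.000293), had a median of −2.87 in aorta and −0.73 in muscle. All 10 markers of skeletal muscle fibres (Ckm and Myh4 among them) were also lower in aorta, with a median difference of −6.57. Their summed level lay between 0.17 and 2.44 on the aorta arrays and between 4.30 and 7.24 on the muscle arrays, and their part in the Des and Tpm1 differences was not tested. Mylk, the kinase that phosphorylates Myl9, lay between 0.67 and 2.76 in aorta (median 1.98) and between 2.30 and 3.60 in muscle (median 3.33), a difference of −1.34 (SE 0.21, limma adjusted p = 3.719e-05). Of the other 3 genes that control myosin phosphorylation, Ppp1r12b and Ppp1r14a (a subunit and an inhibitor of myosin phosphatase) and Prkg1 (the kinase that answers cyclic GMP), none was called, with differences of −0.30, −0.07 and −0.04.

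Vcl, vinculin of adhesion plaques, lay between −0.43 and 1.62 in aorta (median 0.49) and between 0.46 and 2.14 in muscle (median 1.62) and was lower in aorta by 1.08 on the log2 scale (SE 0.22, limma adjusted p = 0.000547). Srf differed by −0.59 (SE 0.18, limma adjusted p = 0.0118) and Csrp1, a LIM protein of the SRF pathway, by −0.74 (SE 0.17). Without the HFD arrays of experiment 1 Srf was no longer called, at −0.46 (adjusted p = 0.100), and the other 10 lower genes were. Myl9, Srf and Vcl, which hold a complete box in their promoter window, were among the 11 lower genes, and the other 8 held none or had no window. A link between the boxes and the tissue differences was not tested.

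Acta2 was not called on its brightest probe, with a difference of 0.0039 and a 95% interval of −0.47 to 0.47 in limma, and differed by −1.04 on a dimmer one (adjusted p = 0.0013). Lmod1 differed by −0.02 (−0.41 to 0.37). Myocd read 0.82 higher in aorta (SE 0.55, limma adjusted p = 0.231) and Synpo2, a Z-body protein, 0.38 (SE 0.38). The channel genes were near background. Kcnma1, the pore of the large-conductance potassium channel, was well above background on 7 of 12 aorta arrays and 0 of 12 muscle arrays, at least 1.19-fold higher in aorta and not tested. Its beta1 subunit Kcnmb1 was above background on 5 of 12 arrays in each tissue, Cacna1c, the pore of the L-type calcium channel, on 6 and 7, and Pln, the inhibitor of the calcium pump, on 7 and 10. Kcnma1 ranged from −8.35 to −3.0 in aorta and Pln from −8.63 to −3.19.

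**Figure D2:**
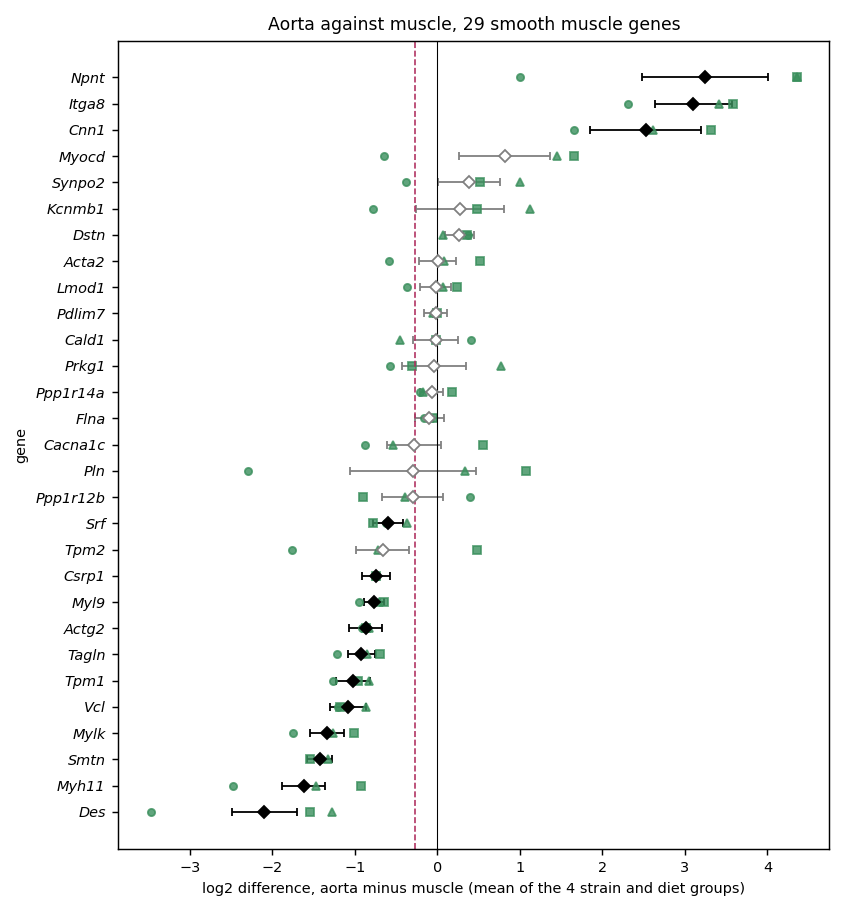
Difference aorta minus muscle for the 29 genes tested (log2, mean of the 4 strain and diet groups), with diamonds for the mean and bars of 1 SE, filled where the limma adjusted p is under 0.05, and green circles, squares and triangles for experiments 1, 2 and 3. The dashed line is the median of all probes (−0.27), with Npnt, Itga8 and Cnn1 to the right of it and Des and Myh11 farthest to the left.

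Within single groups of 3 arrays against 3, fewer genes passed. In WT chow 5 genes were lower in aorta (beside 15.5% of all probes called), which were Myh11 (−2.26), Smtn (−2.14), Cacna1c, Mylk (−1.74) and Myl9 (−1.10). Cacna1c was above background on 0 of 3 aorta arrays and 3 of 3 muscle arrays there, at least 2.38-fold lower in aorta (limma adjusted p = 0.0348). Its call, made against aorta arrays at background, is a description. In WT HFD (16.7% of all probes) Itga8 was higher by 3.77 and Vcl (−1.71), Tpm1 (−1.47) and Smtn (−1.07) were lower. In KO chow (6.41%) Des (−2.77), Smtn (−1.17) and Myl9 (−1.12) were lower. In KO HFD (16.4%) Itga8 was higher by 3.94, and Mylk (−1.53) and Smtn (−1.33) were lower. Smtn was the gene called in all 4 groups. Centred as in the deposited table, 4 were lower in WT chow, 1 was higher and 1 lower in WT HFD and in KO chow, and 1 was higher and 2 lower in KO HFD, with 9.53%, 10.3%, 6.03% and 10.3% of all probes higher and 3.7%, 4.6%, 1.01% and 4.19% lower (7.64%, 8.31%, 4.43% and 8.17% higher and 7.89%, 8.4%, 1.97% and 8.22% lower here). With the pool of mice as a block (same strain, diet and experiment in both tissues), 9, 7, 6 and 9 genes passed in these groups and 15 over their mean, beside 22.8%, 23.7%, 9.96%, 24.8% and 56.3% of all probes.

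Markers of other cell types also differed between the tissues, beside 16% of all probes called higher and 30.2% called lower in aorta. All 10 fibroblast markers, such as Pdgfra and Col1a1, were called higher in aorta with a median difference of 4.48, and their summed level lay between 8.33 and 9.53 in aorta and between 4.60 and 7.84 in muscle. Of 10 pericyte markers, 7 were called lower in aorta (Rgs5 by 3.70 on the log2 scale) and 1, Anpep, higher, with summed levels of 5.75 to 6.93 in aorta and 6.28 to 7.40 in muscle. Of the 12 endothelial markers, 11 were called lower in aorta, with summed levels of 7.20 to 8.86 in aorta and 8.79 to 9.50 in muscle. Of the 10 skeletal fibre markers, 4 were well above background on all 12 aorta arrays, and Ckm and Pvalb on 6 and 5. The part of these cells in the differences of the smooth muscle genes was not tested. Genes that cultured, dividing smooth muscle cells raise as they lose the contractile program (9 of 12 called, none lower) were higher in aorta, among them Klf5 by 2.91 (SE 0.36) and Fn1 by 2.58 (SE 0.26), and fibroblasts make several of them too.

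**Figure D3:**
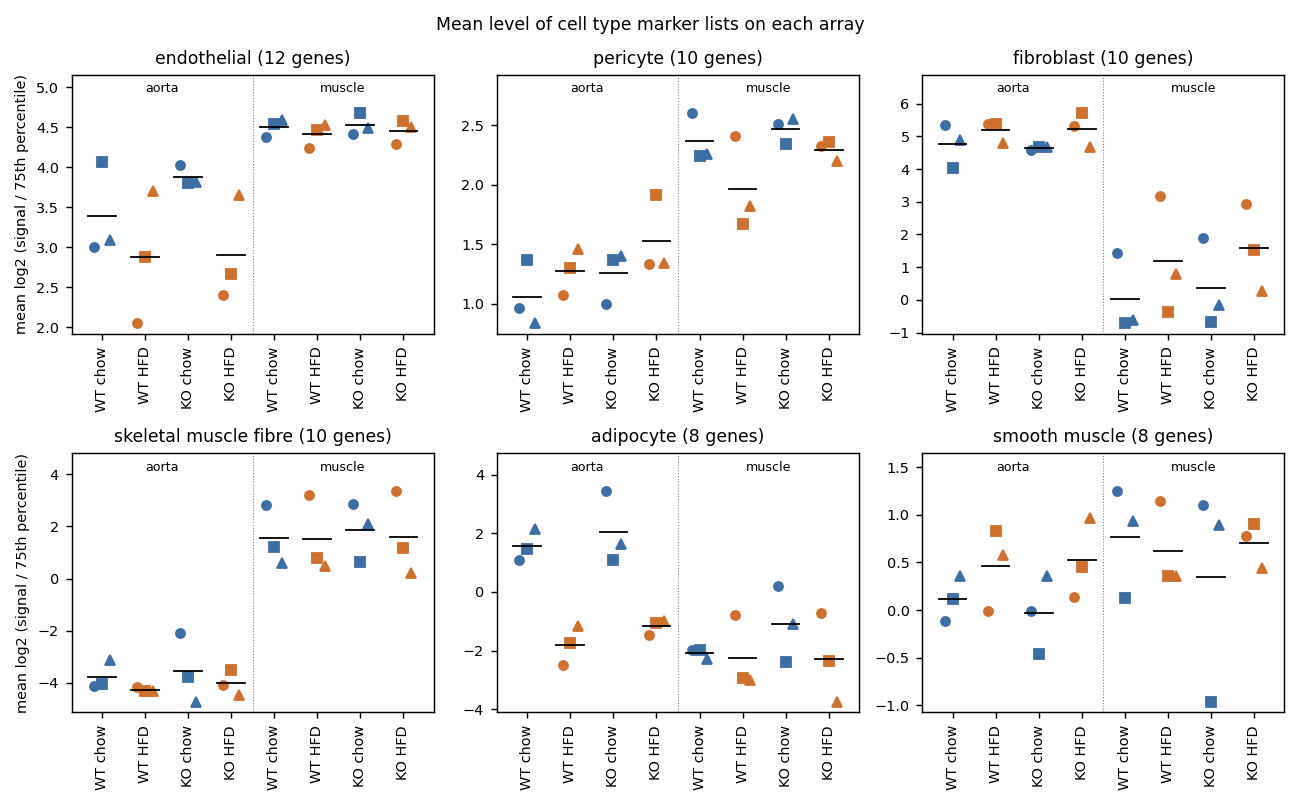
Mean level of 6 marker lists on each of the 24 arrays, over all genes of a list with a matched probe, tested or not. Levels are log2 of the signal over the array's 75th percentile, and each panel has its own axis. Blue marks chow, orange HFD, a circle, square or triangle experiment 1, 2 or 3, and a bar the group mean of 3. Fibroblast and skeletal fibre lists lie apart between the tissues, while the list of 8 smooth muscle genes spans −0.46 to 0.97 in aorta and −0.96 to 1.25 in muscle.

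Genes that control contraction from outside the filaments were taken from a list of 41, of which 37 were tested between the tissues. In aorta 6 were higher and 19 lower, beside 16% and 30.2% of all probes, with a median of −0.47. Those higher were the receptors for noradrenaline (Adra1b, 3.93, SE 0.58), vasopressin (Avpr1a, 3.27, SE 0.28), serotonin (Htr2b, 1.48, SE 0.41) and endothelin (Ednra, 1.47, SE 0.27), and the adhesion proteins Fhl1 (0.50) and Zyx (0.37). Those lower held the guanylate cyclase subunits Gucy1a1 (−1.26, SE 0.33) and Gucy1b1 (−1.14, SE 0.24), the natriuretic peptide receptor Npr1 (−1.40, SE 0.35) and the kinase Rock1 (−0.68, SE 0.25).

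HFD was compared with chow within each strain and experiment. In aorta, averaged over the strains, 0 of the 27 genes tested passed in limma (0.031% of all probes, 8 of 25829, did). At an unadjusted p under 0.05 there were 6 genes, all higher on HFD, beside 15.1% of all probes in either direction and 8.44% higher. They were Itga8, Cnn1, Lmod1, Tpm2 and Myl9, and Cacna1c, which was tested only because its HFD arrays were above background. The differences were above 0 for 21 of the 27 genes, beside 51.1% of all probes, with a median of 0.16 against 0.01. They were above 0 for 11 of the 12 filament and myosin genes, of which 4 were among the 6. Of these 11, however, Dstn, Tagln, Cald1, Actg2, Smtn and Myh11 differed by only 0.003 to 0.11. The count of directions was not tested.

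Itga8 had a higher value on HFD in all 6 pairs of strain and experiment, short of the adjusted threshold. In aorta, Itga8 read 0.06, −1.91 and 1.57 on the WT chow arrays, 1.74, 2.35 and 1.75 on the WT HFD arrays, −0.24, −0.54 and −0.33 on the KO chow arrays and 2.10, 1.80 and 2.19 on the KO HFD arrays. All 6 HFD arrays (1.74 to 2.35) lay above all 6 chow arrays (−1.91 to 1.57), as they did for 0.623% of all probes. Its difference was 2.22 (SE 0.49, limma adjusted p = 0.172), with 2.01, 3.30 and 1.35 in experiments 1, 2 and 3, and a dimmer probe gave 2.30. In muscle the same pairs did not keep together. In muscle, Itga8 read −0.91, −3.18 and −1.03 on the WT chow arrays, −1.17, −2.19 and −2.10 on the WT HFD arrays, −2.22, −6.13 and −2.02 on the KO chow arrays and −1.26, −1.16 and −3.30 on the KO HFD arrays. The muscle difference was 0.72 (SE 0.75), with 0.35, 2.98 and −1.17 in the 3 experiments.

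Cacna1c was not well above background on any of the 6 chow arrays of the aorta and was on all 6 HFD arrays. In aorta, Cacna1c read −5.77, −7.53 and −7.76 on the WT chow arrays, −5.49, −4.99 and −4.69 on the WT HFD arrays, −6.26, −6.66 and −6.73 on the KO chow arrays and −4.42, −4.07 and −5.10 on the KO HFD arrays. Between group means, HFD was at least 2.35-fold higher than chow, by 2.11-fold in WT and 2.61-fold in KO at least. The WT pair of experiment 1 differed by less, at −5.77 on chow and −5.49 on HFD. The fitted difference, measured against chow arrays at background, was 1.99 (SE 0.38, limma adjusted p = 0.139), a description, since the gene was tested through the HFD arrays alone. In muscle 7 of the 12 arrays were above background. In muscle, Cacna1c read −4.78, −5.39 and −4.49 on the WT chow arrays, −4.08, −6.26 and −6.0 on the WT HFD arrays, −5.20, −7.46 and −6.89 on the KO chow arrays and −4.36, −6.36 and −4.79 on the KO HFD arrays. In muscle the difference was −0.56 in WT and 1.35 in KO, with a mean of 0.39 (SE 0.32), with HFD higher in 3 of 3 KO pairs and 1 of 3 WT pairs.

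Cnn1, with the array values above, ranged from −3.38 to 0.96 on the aorta chow arrays (median −1.03) and from 0.31 to 1.50 on the HFD arrays (median 0.75). Its difference was 2.00 (SE 0.54, limma adjusted p = 0.219), positive in 6 of 6 pairs and, by experiment, 1.10, 3.79 and 1.11. Without experiment 2 it was 1.10. In WT the groups of Cnn1 overlapped and in KO they did not. Lmod1 differed by 0.84 (SE 0.30, limma adjusted p = 0.284) and did not overlap in either strain, although the WT pair of experiment 3 differed by only 0.01. Prkg1 differed by 1.05 (SE 0.52), of which experiment 2 gave 2.65 and the others 0.23 and 0.27. In aorta, Prkg1 read −3.78, −6.51 and −4.24 on the WT chow arrays, −3.92, −3.14 and −3.0 on the WT HFD arrays, −2.94, −5.10 and −2.80 on the KO chow arrays and −2.34, −3.17 and −3.51 on the KO HFD arrays. The WT chow array of experiment 2 was the 1 array of the 12 not above background for Prkg1.

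Myl9 differed by 0.49 (SE 0.20) and Tpm2, a tropomyosin, by 0.52 (SE 0.20), both limma adjusted p at or above 0.294. In aorta, Myl9 read 4.74, 4.77 and 4.63 on the WT chow arrays, 5.41, 5.42 and 4.99 on the WT HFD arrays, 4.51, 4.62 and 5.19 on the KO chow arrays and 5.11, 5.46 and 5.0 on the KO HFD arrays. The HFD arrays of Myl9 lay above the chow arrays in WT and overlapped with them in KO. Within single strains 0 genes passed in limma (0% of all probes), and 1 in WT (Itga8, beside 5.76% of all probes) and 2 in KO (Itga8 and Cnn1, beside 11.2%) had an unadjusted p under 0.05, apart from Cacna1c in both. There 3 genes measured on both diets did not overlap and were higher on HFD in WT (Itga8, Lmod1 and Myl9, beside 3.67% of all probes) and 3 in KO (Itga8, Lmod1 and Cnn1, beside 7.25%), as did Cacna1c against chow arrays at background. By the study's criterion of a log2 ratio above 1 in all 3 experiments, Cnn1 and Itga8 qualified in KO (beside 1.81% of all probes), Cacna1c did so against chow arrays at background, and 0 qualified in WT (0.736%). The Myh11, Tagln and Acta2 differences were 0.11 (SE 0.34), 0.03 (SE 0.23) and 0.28 (SE 0.27), and Mylk read −0.45 (SE 0.27). The 2 Synpo2 probes disagreed, with 0.56 on the brighter and −1.51 on the dimmer.

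**Figure D4:**
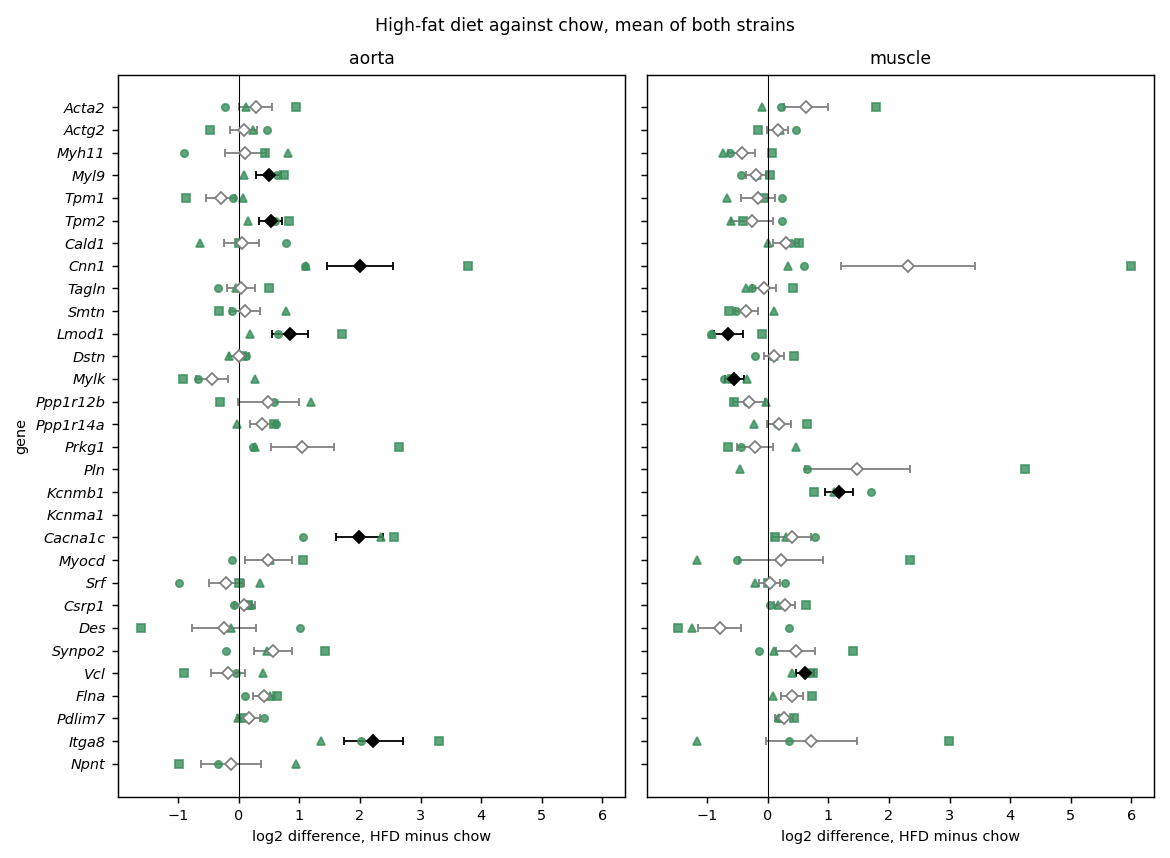
Difference HFD minus chow (log2, mean of the strains) for the genes tested in aorta and in muscle, with diamonds for the mean and bars of 1 SE, filled where the unadjusted limma p is under 0.05, and green circles, squares and triangles for experiments 1, 2 and 3. In aorta Itga8 and Cnn1 lie near 2, with all 3 experiments above 1, Cacna1c lies there against chow arrays at background, and in muscle the squares of experiment 2 lie far to the right for Cnn1 (6.00), Pln (4.24) and Itga8 (2.98).

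Values of cell type markers differed with diet in the aorta as well. All 12 endothelial markers had values below chow, with a median of −0.65 and 5 at an unadjusted p under 0.05 (15.1% of all probes), and the summed level was 7.79 to 8.70 (WT chow), 8.41 to 8.86 (KO chow), 7.20 to 8.33 (WT HFD) and 7.30 to 8.22 (KO HFD). All 10 fibroblast markers (median 0.60) and 7 of 10 pericyte markers (median 0.55) had values above chow. Summed fibroblast levels ran from 8.33 to 9.17 and from 8.53 to 8.73 on chow and from 8.72 to 9.21 and from 8.59 to 9.53 on HFD in WT and KO. Summed pericyte levels ran from 5.90 to 6.33 and from 5.75 to 6.18 on chow and from 6.26 to 6.55 and from 6.08 to 6.93 on HFD. All 7 tested adipocyte markers had values below chow (median −3.73), and 1, Car3, was called in limma. The part of these cells in the diet differences of Itga8, Cnn1 and Cacna1c was not tested. The list of 41 contraction control genes had 15 of 37 tested genes above 0 in aorta, with a median of −0.09 and 0 called in limma (5 at an unadjusted p under 0.05, beside the 15.1% of all probes), the largest being Mrtfb, an SRF coactivator, at −1.62 (SE 0.29, adjusted p = 0.126).

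Without the HFD arrays of experiment 1 the aorta differences were 2.32 for Itga8, 2.45 for Cnn1, 0.94 for Lmod1, 0.49 for Tpm2 and 0.415 for Myl9, and in KO alone 2.43 for Itga8 and 2.97 for Cnn1. Over the alternatives run they ranged from 1.68 to 2.65 (adjusted p 0.0955 to 0.386) for Itga8 and from 1.10 to 2.45 (0.127 to 0.374) for Cnn1.

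In muscle, averaged over the strains, 0 of the 28 genes tested passed in limma (0.289% of all probes did), and 4 had an unadjusted p under 0.05 (16.4% of all probes), 2 in each direction. The differences of 17 of the 28 were above 0, beside 49% of all probes. Kcnmb1 and Pln, among the 17, were tested through HFD arrays alone. The median difference was 0.17, against −0.01 over all probes. That median was −0.03 without experiment 2 and 0.03 over probes well above background on every array. Those higher were Kcnmb1 and Vcl, and those lower Mylk and Lmod1. Kcnmb1, the subunit that tunes the potassium channel to calcium, was well above background on 1 of 6 chow arrays and 4 of 6 HFD arrays. In muscle, Kcnmb1 read −7.30, −7.24 and −6.18 on the WT chow arrays, −6.17, −7.62 and −6.35 on the WT HFD arrays, −8.22, −7.11 and −7.51 on the KO chow arrays and −5.95, −5.21 and −5.16 on the KO HFD arrays. It was tested only because all 3 KO HFD arrays were above background, and the other groups had 1, 1 and 0 such arrays. In KO, HFD was at least 1.69-fold higher than chow (limma adjusted p = 0.269), and the mean difference over the strains was 1.18 (SE 0.23, adjusted p = 0.105), both descriptions. The same gene in aorta was not tested, with values from −8.33 to −2.80.

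Vcl in muscle read 0.75, 0.46 and 1.52 on the WT chow arrays, 1.70, 1.75 and 2.14 on the WT HFD arrays, 1.16, 1.44 and 1.88 on the KO chow arrays and 1.58, 1.65 and 2.06 on the KO HFD arrays. All 6 pairs of Vcl were higher on HFD, by 0.61 on average (SE 0.15, limma adjusted p = 0.148), while a dimmer probe gave −0.16. Mylk in muscle read 3.50, 3.33 and 3.60 on the WT chow arrays, 2.62, 2.30 and 2.84 on the WT HFD arrays, 3.34, 3.35 and 3.42 on the KO chow arrays and 2.77, 3.19 and 3.49 on the KO HFD arrays. Mylk was lower on HFD in 5 of 6 pairs, by 0.55 on the log2 scale (SE 0.15, limma adjusted p = 0.170), and its dimmer probe gave −0.68. Lmod1 was lower by 0.65 (SE 0.24, limma adjusted p = 0.255), again in 5 of 6 pairs. In WT alone Myh11 (−0.92, SE 0.32), Smtn (−0.76, SE 0.26), Mylk (−0.89, SE 0.22) and Vcl (0.95, SE 0.22) had an unadjusted p under 0.05 (12.1% of all probes), all with an adjusted p at or above 0.219. In KO alone Cacna1c (1.35, SE 0.45) did (8.5% of all probes), as did Kcnmb1 against chow arrays at background. No smooth muscle gene passed in limma in a single strain, beside 0% of all probes in WT and 0.0039% in KO. In WT the HFD arrays of Cnn1 and Vcl lay above all chow arrays (beside 6.51% of all probes) and those of Smtn and Mylk below (7.82%), and in KO those of Cnn1 lay above (4.04%), and those of Kcnmb1 above chow arrays at background. The WT differences were −1.0 for Myh11, −0.74 for Smtn, −0.895 for Mylk and 0.96 for Vcl without the HFD arrays of experiment 1.

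The largest muscle differences were those of Cnn1 (2.31, SE 1.10) and Pln (1.48, SE 0.87), and both rested on experiment 2. Pln was tested through the HFD arrays alone, so its values are descriptions. Cnn1 differed by 0.60, 6.00 and 0.34 in experiments 1, 2 and 3, and Pln by 0.64, 4.24 and −0.46. In muscle, Pln read −4.93, −7.72 and −3.79 on the WT chow arrays, −4.58, −5.09 and −3.46 on the WT HFD arrays, −5.76, −9.04 and −3.17 on the KO chow arrays and −4.83, −3.17 and −4.41 on the KO HFD arrays. The 2 Pln arrays not above background were the chow arrays of experiment 2. Without experiment 2 the muscle differences were 0.47 for Cnn1 and 0.09 for Pln. Des read −0.80 (SE 0.35, limma adjusted p = 0.318), with 0.34, −1.49 and −1.25 in the 3 experiments. In muscle the 10 fibroblast markers had values above chow (median 1.10), with summed levels from 4.60 to 7.14 on chow and from 5.20 to 7.84 on HFD, and 7 of the 10 pericyte markers had values below chow (median −0.36). Without the HFD arrays of experiment 1 the muscle differences were 0.92 for Kcnmb1, 0.58 for Vcl, −0.47 for Mylk, −0.51 for Lmod1, 3.17 for Cnn1 and 1.89 for Pln, none of them called.

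**Figure D5:**
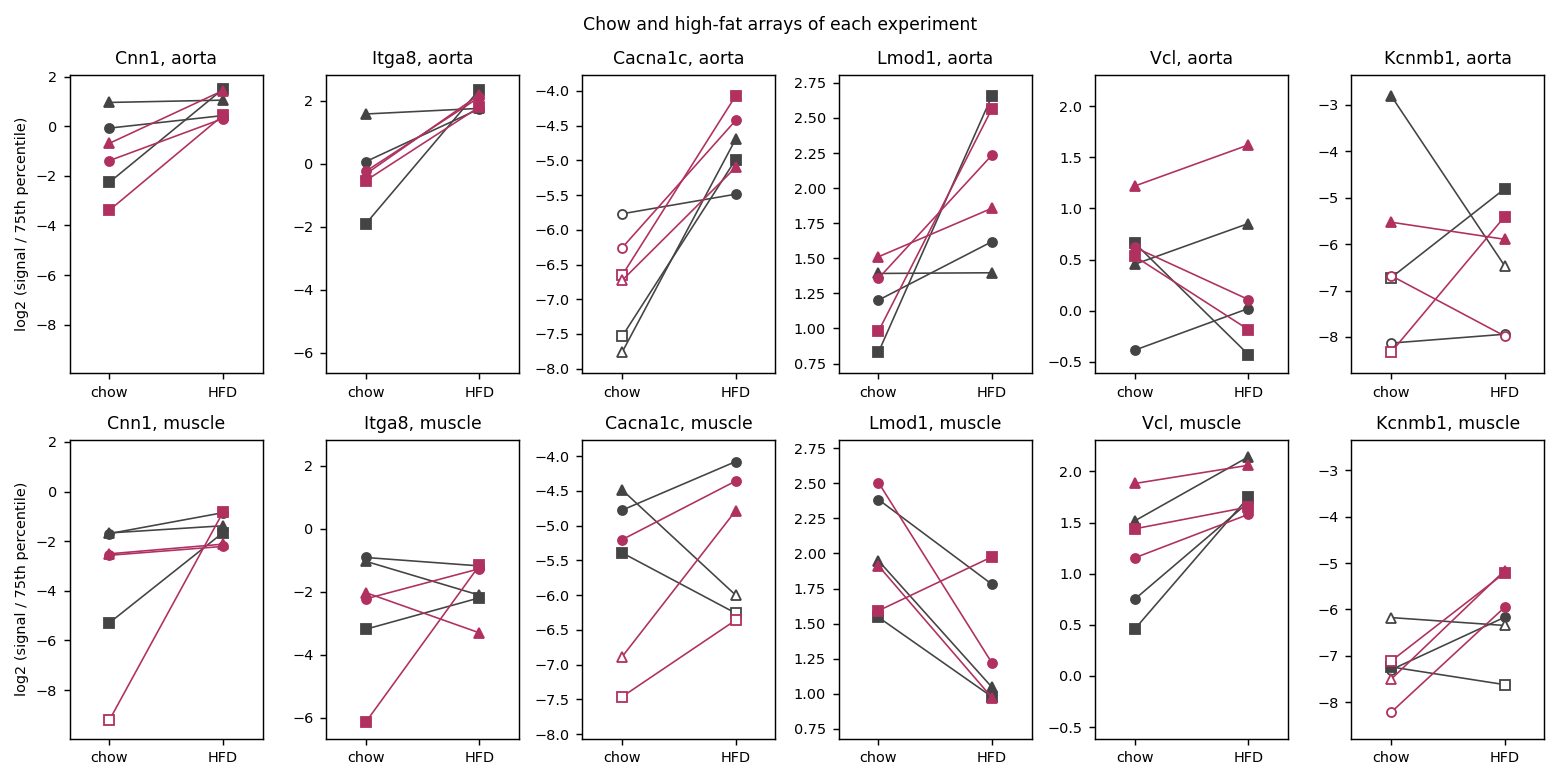
Chow and HFD arrays of each experiment for 6 genes in aorta (top) and muscle (bottom), as log2 of the signal over the array's 75th percentile on 1 axis per gene, with grey lines for WT, red lines for KO, a circle, square or triangle for experiment 1, 2 or 3 and an open symbol for an array not well above background. Lines of Itga8 and Cacna1c climb in all 6 aorta pairs, Vcl climbs in all 6 muscle pairs, and Lmod1 climbs in aorta and falls in 5 of 6 muscle pairs.

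The diet responses of the tissues were set against each other over the 24 arrays. None of 29 genes passed in limma (0% of all probes did), and 4 had an unadjusted p under 0.05 (9.22% of all probes). Lmod1 had the largest of these relative to its error, at 1.50 (SE 0.40, adjusted p = 0.288), and the difference was 1.59, 1.80 and 1.10 in the 3 experiments. Cacna1c (1.60, SE 0.54), Myl9 (0.68, SE 0.25) and Vcl (−0.80, SE 0.32) were the others, where Cacna1c was measured against aorta chow arrays at background. These became 1.45 for Lmod1, 2.25 for Cacna1c, 0.485 for Myl9 and −0.83 for Vcl without the HFD arrays of experiment 1. The responses of KO and WT differed in limma for 0 of 27 genes in aorta (0% of all probes, with 0 of the genes and 2.59% of all probes at an unadjusted p under 0.05). In muscle 0 of 28 passed (0% of all probes), and 2 had an unadjusted p under 0.05 (4.12% of all probes), Kcnmb1 (1.98, SE 0.46) and Cacna1c (1.91, SE 0.64), both with an adjusted p of 0.999 (2.40 and 2.79 without the HFD arrays of experiment 1). Each entered the muscle tests through 1 group, so these are descriptions.

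KO and WT were compared within each tissue and diet, by the label of each array. In limma, 0 of the smooth muscle genes passed on chow (0.0116% of all probes) or HFD (0.00387%) in aorta, or on chow (0%) or HFD (0%) in muscle, with or without the HFD arrays of experiment 1. At an unadjusted p under 0.05 there were 0 of 27 on chow and 1 on HFD in aorta, and 1 of 28 on chow and 2 on HFD in muscle, beside 4.39%, 1.14%, 2.42% and 3.15% of all probes. They were Npnt on HFD in aorta (KO minus WT −1.41, SE 0.64), Cacna1c on chow in muscle (−1.63, SE 0.73), and Mylk (0.56, SE 0.25) and Kcnmb1 (1.27, SE 0.47) on HFD in muscle, of which Cacna1c and Kcnmb1 were tested through the brighter of the groups compared. Npnt in aorta read −3.23, −2.25 and −2.38 on the WT chow arrays, −1.95, −2.58 and −2.04 on the WT HFD arrays, −2.51, −2.85 and −3.37 on the KO chow arrays and −4.48, −4.49 and −1.82 on the KO HFD arrays. The 2 lowest Npnt levels were the KO HFD arrays of experiments 1 and 2, and that of experiment 3 was the highest of the 6 HFD levels. Without the HFD arrays of experiment 1 the Npnt difference was −0.84, that of Mylk 0.77 and that of Kcnmb1 1.80.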

How the data were processed

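Labelled RNA of 24 pooled cell sorts was hybridised to 1-colour Agilent arrays, with 3 arrays in each of 8 groups. The deposited intensity values (processed signals) were made by the authors with Agilent Feature Extraction, which subtracts background. The files' headers name version 10.5.1.1 and the submitters' processing notes 9.1. The deposited log2 table of the authors equals the logs used here plus 1 constant per array. Its centring differs between the tissues, and it was used as an alternative.

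Here log2 of each non-control signal was taken relative to the array's 75th percentile, 2390 to 5938 in intensity, with 1 mean per probe. No spot of the genes described was an outlier or saturated. Accessions were matched to RefSeq symbols of GRCm38.p6 (27198 of 41174 probes, 18539 symbols). Array number limits the precision, as each group holds 3 pools. limma 3.58.1 in R 4.3.3 fitted all tested probes, with Benjamini-Hochberg adjustment. Diet was fitted per tissue with a block for each strain and experiment, strain within a tissue from group means, tissue over 24 arrays from group means, and the tissue difference of diet responses over 24 arrays with the block. The trial number in the labels marks a shared experiment. Arrays that share it deviated together (median correlation of deviations 0.228 between diets, 0.318 between strains and 0.222 between tissues, against −0.116, −0.163 and −0.0968 for different numbers). Slides held 4 arrays of 1 tissue and experiment, and experiment 1 was scanned apart from experiments 2 and 3.

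The genes and lists were chosen with earlier results of these data known. Array values are printed for 8 defining genes, for genes with an adjusted p under 0.05 (up to 6 per contrast, or their range) and for the 5 largest differences of each diet mean, and other genes are given by ranges and counts. Alternatives were normexp (on the median in place of the planned mean signals), quantile normalization, the deposited table, other filters, averaged probes, leaving out each experiment, other blocks, the methods' t-test and, chosen after seeing the data, leaving out the HFD arrays of experiment 1. The fit was tested on simulated data. Python 3.11.15 with pandas 2.3.3 and numpy 2.4.6 did the rest.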

Additional observations from a re-analysis of the deposited data

How the results depend on the processing

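Of 14 smooth muscle genes called between the tissues, 10 were called under every alternative that tested them (Actg2, Csrp1, Des, Itga8, Myh11, Myl9, Mylk, Smtn, Tagln and Tpm1). Over the mean of the groups, 12 to 14 were called when an experiment was left out. In single groups, where 5 (WT chow), 4 (WT HFD), 3 (KO chow) and 3 (KO HFD) were called, leaving out an experiment gave 1 to 5, 1 to 2, 0 to 1 and 2. The pool of mice as a replicate block gave 9, 7, 6 and 9 (22.8%, 23.7%, 9.96% and 24.8% of all probes). WT HFD had 2 with the deposited table and 1 without the HFD arrays of experiment 1, and KO HFD had 5 with the stricter filter on dim probes. The cause of these shifts was not tested, although leaving out arrays leaves fewer samples. All 155 counts of called genes in diet and strain comparisons under alternatives were 0. The methods' t-test on ratios gave 1 (WT) and 2 (KO) genes in aorta and 4 and 1 in muscle at the methods' unadjusted threshold (4.72%, 6.71%, 8.26% and 5.02% of all probes) and 0 after Benjamini-Hochberg adjustment. The replicate block, as strain and experiment, as slide or left out, changed no call there. Of 5825 values of single genes under alternatives, 5702 kept their side of the threshold, 24 uncalled values moved by more than the replicate spread, 58 values lost and 41 gained a call, and 0 reversed. The 3 pools in a group limit what the diet and strain comparisons can show. Dim probes such as those of Cacna1c, Kcnmb1, Kcnma1, Pln and Npnt lie near background on some arrays.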

Other observations

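The chow arrays of experiment 2 were low for many of the smooth muscle genes, a pattern noticed after the values were seen and given without a test. In muscle, both chow arrays of experiment 2 lay below the other 4 chow arrays for 12 of the 28 genes tested (42.9%), beside 9.14% of all probes. The 12 were Acta2, Myh11, Tpm2, Cnn1, Lmod1, Dstn, Ppp1r14a, Pln, Myocd, Des, Synpo2 and Itga8. The chow arrays of experiments 1 and 3 were lowest for 1 and 3 genes, beside 11.5% and 17.9% of all probes. In aorta, experiment 2 was lowest for 5 of 27 genes (Cnn1, Lmod1, Prkg1, Synpo2 and Itga8, 18.5%), beside 9.03% of all probes, and experiments 1 and 3 for 3 and 2 genes, beside 8.09% and 18%.

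Of 12 genes linked to the growing, matrix-making state of smooth muscle, 10 had values above chow on HFD in the aorta, beside 51.1% of all probes. Their median difference was 0.33. Eln, the elastin of the aortic wall, had a difference of 1.43 (limma adjusted p = 0.220). Macrophage markers had a median HFD minus chow difference of 1.77 in muscle and −0.69 in aorta. Their mean level in muscle ran from −6.54 to −2.16 (WT chow), −3.43 to −0.86 (WT HFD), −5.96 to −2.29 (KO chow) and −5.66 to 0.21 (KO HFD). The diets thus overlapped in both strains in muscle, as they did in aorta.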
